A study of Sus scrofa with 16 samples.

Results

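The lowest oral dose of oestradiol (E2), 0.05 µg/kg body weight/day, was set against the carrier control in endometrium, the inner lining of the uterus, of adult sows on day 10 of pregnancy. The members are 8 of the 16 libraries of the series, chosen by their dose labels: 4 control libraries from 4 sows, and 4 dosed libraries from 3 sows, since sow 7 was extracted as libraries 7a and 7b and counts as 1 animal after summing. Control sows (sows 1 to 4) received the ethanol carrier with 0 µg/kg/day of E2, and dosed sows (sows 5 to 7) received 0.05 µg/kg/day, from insemination until tissue collection. All 7 sows were pregnant and inseminated, and the uterus was flushed before sampling. The tissue is a mixture of gland and surface epithelium, stroma, vessels and blood, so fewer cells of a type and less RNA per cell cannot be told apart. Libraries from 8 further sows at 10 and 1000 µg/kg/day share the spread estimate of the fits and the same 4 control sows.

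MicroRNAs (miRNAs) are short RNAs that guide Argonaute proteins to messenger RNAs, mainly through the seed, the bases near the 5′ end that pair with the target. In the uterus, oestradiol and progesterone shape the receptive lining, and miRNAs such as miR-21, let-7 and the miR-200 family are known there for restraining growth inhibitors, proliferation and the loss of epithelial character. At this stage the pig conceptus itself begins to release oestrogen, the signal that maintains the pregnancy. Longer reads come from tRNA, rRNA, small nuclear RNA and Y RNA, a small non-coding RNA bound by the Ro60 protein.

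The miRNAs that the comparison turns on are printed 5′ to 3′ as their leading reads, with T for U and the seed (bases 2 to 8) in capitals. The 5 let-7 members, shown because their shares of the family are compared, have the same seed and differ elsewhere.
let-7a/c: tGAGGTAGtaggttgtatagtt
let-7d: aGAGGTAGtaggttgcatagtt
let-7e: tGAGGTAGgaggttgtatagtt
let-7f: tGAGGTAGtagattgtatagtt
let-7i: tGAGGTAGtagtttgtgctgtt
miR-221 and miR-222 also have the same seed and are shown because the dosed sows lay above all control sows for the former and not for the latter.
miR-221: aGCTACATtgtctgctgggttt
miR-222: aGCTACATctggctactgggtctct
The remaining sequences belong to the most abundant miRNA (miR-21) and to those with separated groups, wide spread or the smallest p.
miR-21: tAGCTTATcagactgatgttgac
miR-205: tCCTTCATtccaccggagtctgt
miR-30a: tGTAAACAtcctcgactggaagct
miR-125a: tCCCTGAGaccctttaacctgt
miR-203: gTGAAATGtttaggaccactag
miR-543: aAACATTCgcggtgcacttctt

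Each sow's library held 6198464 to 18525580 reads of 17 to 49 nt, and 22 nt was the most frequent length in all of them. The length profiles differed within both groups. Sows 1, 2 and 5 had 5.89 to 6.17% of reads of 17 to 19 nt and 11.3 to 12.6% of 40 nt or more (class A), sows 3 and 4 had 9.99 and 13.97% and 1.84 and 2.83% (class B), and sow 6 had 10.4 and 10.18% (class C). Sow 7 joined library 7a of class B, with 2.11% of 40 nt or more, and library 7b of class C, with 6.38%. No control sow was in class C, so for sow 6 class and dose cannot be told apart, and within-class values rest on sow 5 against sows 1 and 2 and on library 7a alone against sows 3 and 4. Reads of 18 to 26 nt made up 59.0 ± 7.32% of control and 55.9 ± 8.58% of dosed reads (SD, n = 4 and 3; two-sided exact permutation p = 0.6, adjusted p = 0.914 over 12 measures). Reads assigned to miRNAs of at least 100 counts per 1000000 reads (CPM) were 35.7 ± 3.71% and 34.2 ± 5.10% (SD, n = 4 and 3; exact permutation p = 0.629).

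**Figure D1:**
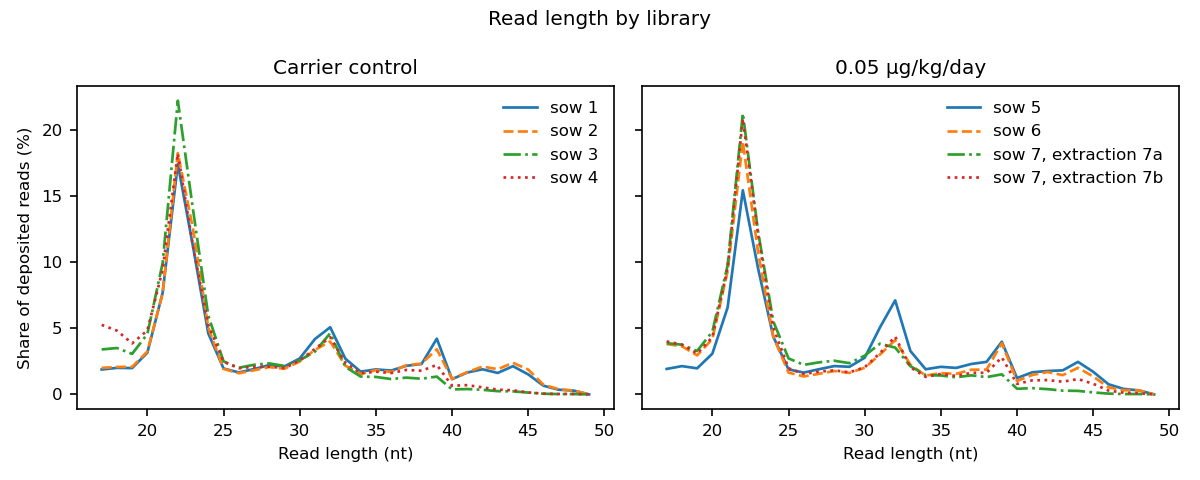
Share of deposited reads (%) by read length (nt), 1 line per library, control sows on the left and dosed libraries on the right. All libraries peak at 22 nt, and sows 1, 2 and 5 hold 11.3 to 12.6% of reads of 40 nt or more against 1.84 and 2.83% in sows 3 and 4.

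The most abundant miRNAs overlapped in level between the groups, and 0 of the 137 miRNAs that could be named passed the test at the lowest dose by edgeR. The 10 most abundant held 59.2% of the summed CPM of the named miRNAs. miR-21, an abundant miRNA that represses tumour suppressors, had 126436, 185868, 125732 and 72025 CPM in control sows 1 to 4. In dosed sows 5 to 7 it had 92501, 101414 and 98792 CPM. The dosed sows all lay within the control range and close together, with a log2 difference of -0.39 (95% interval -1.04 to 0.27; adjusted p = 0.9997 by edgeR). That difference was -0.76 in class A and -0.12 in class B. miR-143, typical of smooth muscle and stroma, had 74885, 76496, 48490 and 39071 CPM in control and 47326, 68543 and 51995 CPM in dosed sows. Its groups overlapped as well, and its log2 difference was -0.09 (95% interval -0.95 to 0.76), at -0.68 in class A and 0.15 in class B.

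miR-10b, encoded in a HOX gene cluster, had 32734, 40602, 36073 and 19489 CPM in control sows and 28245, 32592 and 35955 CPM in dosed sows. Its log2 difference was 0.00 with a 95% interval of -0.52 to 0.53. miR-10a, which differs from it at an inner base, lay at -0.07. let-7i had 25942, 41022, 32703 and 21104 CPM in control sows against 31074, 27989 and 30148 CPM, while let-7a/c had 27382, 18367, 22510 and 21042 CPM against 29110, 32087 and 26362 CPM. For let-7a/c sows 5 and 6 stood above every control sow and sow 7 stood below sow 1, and the log2 difference was 0.39 (95% interval -0.08 to 0.86) against -0.02 for let-7i. The other members of the 10 had log2 differences of 0.07 (miR-27a/b), -0.26 (miR-148a), 0.30 (miR-26a) and 0.29 (miR-99a), all with overlapping groups.

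**Figure D2:**
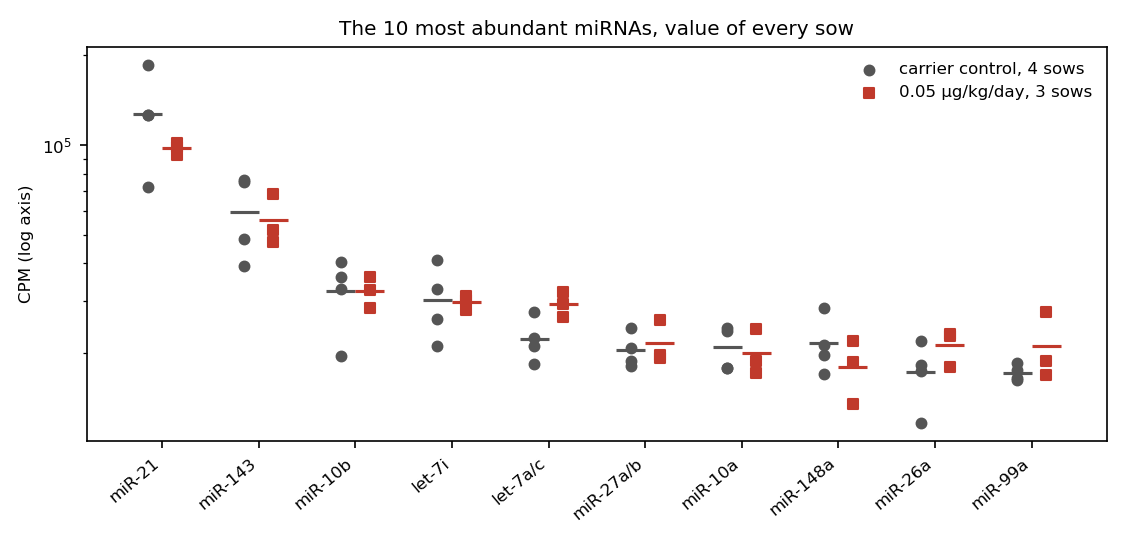
CPM (log axis) of the 10 most abundant miRNAs in every sow, control sows and dosed sows side by side, with group means as lines. The groups overlap for all 10, and for miR-21 they span 92501 to 101414 CPM against 72025 to 185868 CPM in control.

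Short reads were grouped by identical opening bases (18 nt). Of all 11108 such groups 0 passed the test by edgeR (0% called), 263 had an unadjusted p under 0.05 (2.37%) and 0 passed by DESeq2, with 244 at an unadjusted p under 0.05. Of the 137 named miRNAs 2 had an unadjusted p under 0.05, miR-543 and miR-125a. Their fitted differences were higher for 82 and lower for 55, with a median of 0.05, beside a median of -0.02 over all 11108 groups. For the 103 miRNAs of at least 100 CPM the log2 differences ran from -1.14 (miR-203) to 0.77 (miR-205) with a median of 0.04. The 95% interval reached a median of 0.59 log2 units to either side, which is 1.51-fold, and for 83 of the 103 it stayed inside 1 log2 unit either way. For those 83 the interval leaves out a change of more than 2-fold, and for the others it does not.

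**Figure D3:**
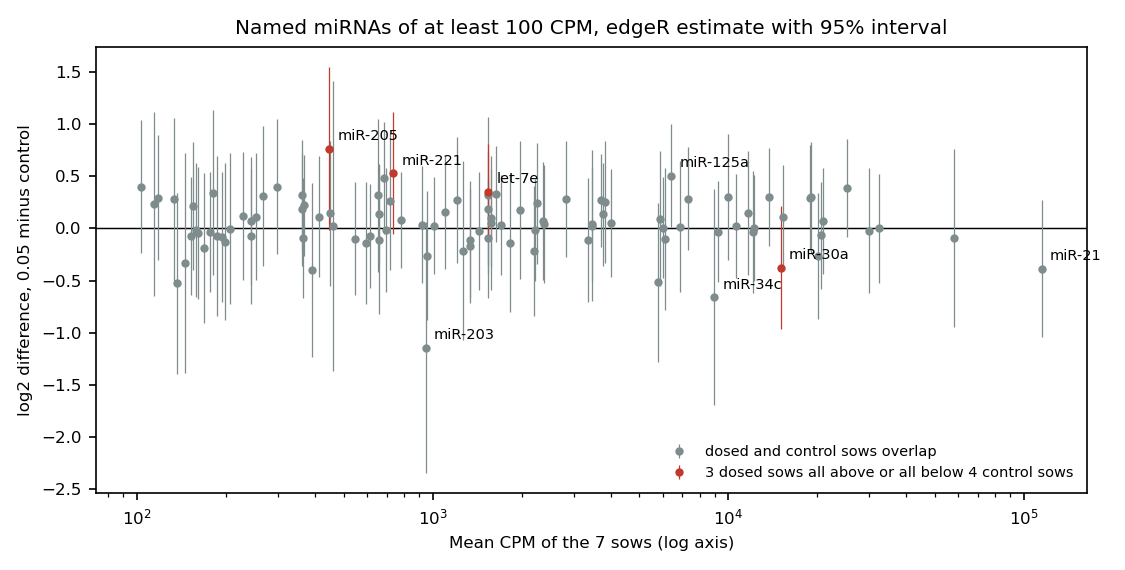
Log2 difference of 0.05 µg/kg/day minus control (points, with 95% intervals from the edgeR fit) against mean CPM of the 7 sows (log axis) for the 103 named miRNAs of at least 100 CPM. Points run from -1.14 for miR-203 to 0.77 for miR-205, and the coloured points are the 4 miRNAs whose groups did not overlap.

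The sows also differed from each other across the miRNAs. Sow 4, a control sow, had the lowest CPM of the 7 for 66 of the 103 miRNAs, and sow 6 had the highest for 36. Sow 7 was the highest for 0. The SD of log2 CPM was lower among the 3 dosed than among the 4 control sows for 73 of the 103, with medians of 0.25 and 0.37. This was not tested. The CPM of extractions 7a and 7b of sow 7 differed by a median of 0.36 log2 units, sign aside. Of 103 miRNAs 100 were higher in 7b. With the sign kept the median was 0.35, so this was mostly 1 shift shared by nearly all miRNAs under the TMM scaling. Reads assigned to miRNAs were 36.9% of deposited reads in 7a and 38.4% in 7b. Short-read CPM given for 1 extraction carry this shift, and so do the class B log2 differences of short reads, which use 7a alone. The median of 0.36 is within the medians between pairs of control sows (0.29 to 0.61) and slightly above those between pairs of dosed sows (0.25 to 0.35). The largest difference between the extractions, 1.02 log2 units, was that of miR-205.

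Of the 103 miRNAs, 4 had groups that did not overlap, 3 with all dosed sows above control and 1 with all below. Among all 629 read groups of at least 100 CPM, 1.27% lay above and 1.43% below in this way, so the share among the named miRNAs is of the same order as the background. miR-205, a miRNA of squamous and basal epithelium, had 383, 446, 395 and 148 CPM in control and 663, 496 and 591 CPM in dosed sows. All 3 dosed sows were above sow 2, the highest control sow. Extraction 7a alone, at 373.4 CPM, lay below 3 control sows, while 7b had 760 CPM. The log2 difference was 0.77 (95% interval -0.01 to 1.55, unadjusted p = 0.0535, adjusted p = 0.9997 by edgeR), at 0.68 in class A and 0.45 in class B. At 10 and 1000 µg/kg/day, set against the same control sows, it was 0.59 and 0.67.

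miR-221, which represses the cell cycle inhibitor p27 and the oestrogen receptor alpha, had 735, 683, 671 and 382 CPM in control and 1003, 925 and 745 CPM in dosed sows. Sow 7 lay just above sow 1, and its extraction 7a had 660 CPM. The log2 difference was 0.53 (95% interval -0.06 to 1.11, unadjusted p = 0.0747 by edgeR), at 0.50 in class A and 0.32 in class B. It was 0.37 without sow 4 (unadjusted p = 0.19 by edgeR) and 0.64 without sow 7 (unadjusted p = 0.0591 by edgeR). At 10 and 1000 µg/kg/day it was 0.25 and -0.03. miR-222, its cluster partner with the same seed, had 285, 324, 237 and 200 CPM in control and 499, 285 and 252 CPM in dosed sows. Only sow 5 lay above the control range there, and the log2 difference was 0.40 (95% interval -0.24 to 1.05).

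let-7e had 1512, 1529, 1256 and 1225 CPM in control and 1713, 1892 and 1682 CPM in dosed sows. Its dosed sows lay above all control sows, with a log2 difference of 0.35 (95% interval -0.11 to 0.81, unadjusted p = 0.127 by edgeR). That difference was 0.17 in class A and 0.23 in class B. Extraction 7a alone, at 1457 CPM, lay below control sows 1 and 2, while 7b had 1876 CPM. let-7d, another member of low level, had 789, 500, 564 and 490 CPM against 851, 1014 and 592 CPM, a log2 difference of 0.48 (95% interval -0.05 to 1.02) with sow 7 below sow 1.

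miR-30a, abundant in epithelium, was the only named miRNA of at least 100 CPM with all dosed sows below all control sows. It had 19199, 15482, 16063 and 15960 CPM in control and 11614, 14383 and 12520 CPM in dosed sows. Sow 1 stood apart at the top of the control group. The log2 difference was -0.38 (95% interval -0.97 to 0.21, unadjusted p = 0.199 by edgeR). It was -0.58 in class A and -0.52 in class B, the latter from extraction 7a alone, which lay 0.29 log2 units below 7b. At the higher doses it was 0.09 and 0.15. Its relatives miR-30d, miR-30e and miR-30b/c lay at 0.02, -0.10 and 0.05.

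**Figure D4:**
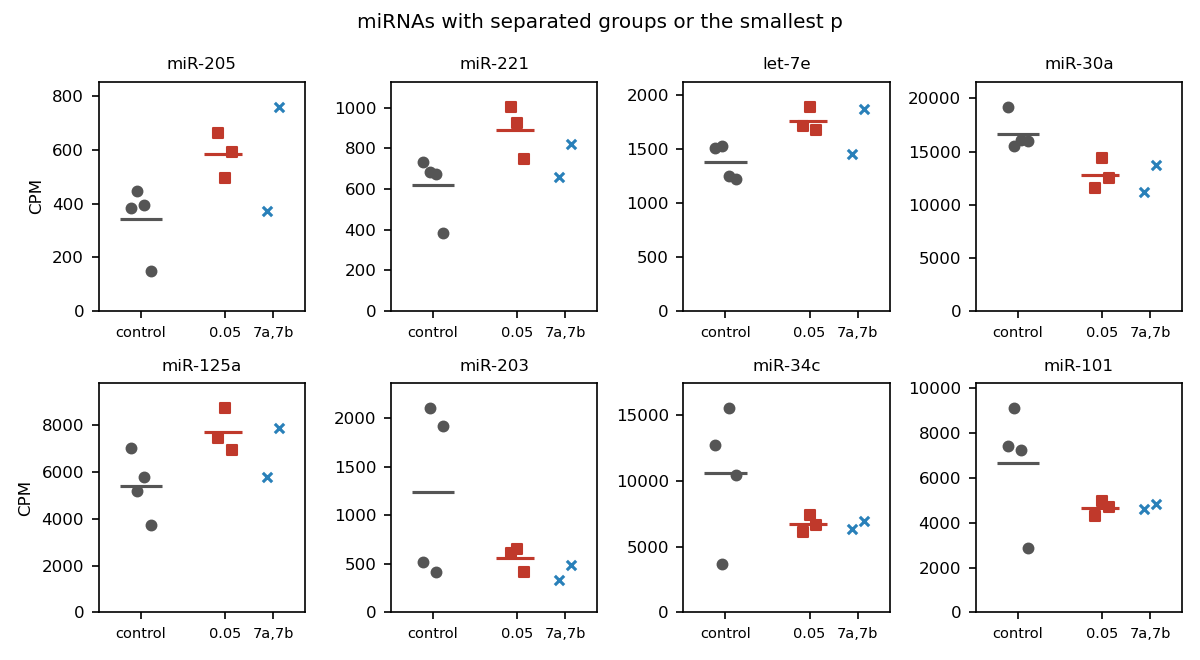
CPM of 8 miRNAs in every control sow and every dosed sow, with the group mean as a line and the 2 extractions of sow 7 shown apart as crosses. The groups do not overlap for miR-205, miR-221, let-7e and miR-30a, while miR-203, miR-34c and miR-101 show dosed sows inside a wide control range.

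The smallest unadjusted p among the named miRNAs belonged to miR-543, a member of the imprinted DLK1-DIO3 cluster. It had 27.8, 20.4, 24.6 and 18.9 CPM in control and 38.0, 39.2 and 28.9 CPM in dosed sows, all above control (1.56% of all 11108 groups lay above and 1.88% below in this way), with a log2 difference of 0.62 (95% interval 0.11 to 1.14, unadjusted p = 0.0201, adjusted p = 0.9997 by edgeR). Extraction 7a had 21.4 CPM, within the control range. miR-125a, a relative of the worm lin-4 miRNA, had 7012, 5172, 5799 and 3722 CPM in control and 7474, 8719 and 6924 CPM in dosed sows. Sow 7 lay between sows 1 and 3, and the log2 difference was 0.51 (95% interval 0.01 to 1.00, unadjusted p = 0.0454 by edgeR). For miR-125a it was 0.38 without sow 4 (unadjusted p = 0.12 by edgeR) and 0.65 without sow 1 (unadjusted p = 0.0176 by edgeR). Its relative miR-125b lay at 0.29.

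The lowest log2 difference, that of miR-203, rested on a split control group. miR-203, a miRNA of differentiating squamous epithelium, had 515, 2102, 413 and 1926 CPM in control and 615, 651 and 417 CPM in dosed sows. These CPM leave out reads that start 1 base later, which were 39.9 to 55.8% of its reads in the single sows. Sows 2 and 4 stood far above sows 1 and 3, and the dosed sows lay with the latter. The log2 difference was -1.14 (95% interval -2.35 to 0.06, unadjusted p = 0.061 by edgeR). At 10 µg/kg/day it was -0.94 and at 1000 µg/kg/day -0.02. miR-34c, a p53 target typical of ciliated epithelium, had 12771, 3662, 15524 and 10434 CPM in control and 6112, 7409 and 6638 CPM in dosed sows. Here sow 2 was the low control sow and the other 3 lay above every dosed sow, for a log2 difference of -0.66 (95% interval -1.69 to 0.37), which was -0.39 without sow 3. miR-101, linked to implantation through repression of the prostaglandin synthase COX-2, had 7424, 9101, 7231 and 2883 CPM in control and 4300, 4966 and 4703 CPM in dosed sows. Sow 4 was the low one in that case, and the log2 difference was -0.52 (95% interval -1.28 to 0.24, unadjusted p = 0.172 by edgeR). It was -0.75 without sow 4 (unadjusted p = 0.0255 by edgeR) and -0.33 without sow 2 (unadjusted p = 0.391 by edgeR).

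Of the remaining miRNAs with a small unadjusted p, miR-708 had a log2 difference of 0.65 and miR-486 one of 0.61 and both had overlapping groups. miR-128 had 1532, 1187, 1528 and 1653 CPM in control and 1663, 2347 and 1570 CPM in dosed sows, with a log2 difference of 0.33, which was 0.15 without sow 6.

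Grouped by role, 0 members of the 15 lists of miRNAs passed the test in either direction by edgeR, and 1 member of all lists (miR-543) had an unadjusted p under 0.05. The let-7 family, which restrains proliferation and RAS signalling, had 6 of 7 members higher and 1 lower in the fit, with a median log2 of 0.30 beside 0.05 over all named miRNAs. Its summed level was 100552, 101753, 97122 and 76804 CPM in control and 107322, 108693 and 99395 CPM in dosed sows, so sow 7 lay within the control range. Within the sum, let-7f took 13.4, 13.7, 12.6 and 12.1% in control and 11.8, 11.7 and 11.5% in dosed sows. The share of let-7f was lower in every dosed sow, with an exact permutation p of 0.0571 (two-sided, 35 assignments, smallest possible 0.0286, adjusted p = 0.543 over 19 ratios). let-7e took 1.503, 1.503, 1.293 and 1.596% in control and 1.596, 1.740 and 1.692% in dosed sows, where the lowest dosed sow was level with the highest control sow (exact permutation p = 0.0571, adjusted p = 0.543). The other members' shares overlapped, and that of let-7i ran from 25.8 to 40.3% in control and from 25.8 to 30.3% in dosed sows.

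Epithelial miRNAs were abundant in every library. The miR-200 family, which keeps epithelial cells from turning mesenchymal, summed to 25042 to 31150 CPM in control and 23839 to 31465 CPM in dosed sows, with 1 of 4 members higher and a median log2 of -0.03. miR-200a, its most abundant member, had 13574, 13840, 10861 and 10717 CPM against 12835, 13742 and 9308 CPM, and miR-429 lay at -0.07. Of the 13 other epithelial miRNAs 11 were lower and 2 higher in the fit (median log2 -0.19), beside 55 lower among all 137 named miRNAs. The 13 are not separate observations. Among them miR-34c, miR-449a and miR-449b have the same seed, and each was lowest in sow 2 and highest in sow 3. The sum of the 13 was 18850, 10111, 20129 and 17820 CPM in control and 11508, 13313 and 11423 CPM in dosed sows. Since miR-34c dominates that sum, sow 2 is its low control sow too.

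Markers of the other cell types of the tissue overlapped between the groups, and their part in the differences above was not tested. The 6 stromal and smooth muscle miRNAs summed to 55967 to 115116 CPM in control and 82538 to 104652 CPM in dosed sows (5 of 6 higher, median log2 0.09), led by miR-143. Within them miR-199-3p, typical of mesenchyme, had 11213, 11526, 8191 and 5228 CPM against 11498, 12445 and 9522 CPM. The 3 endothelial miRNAs summed to 4175 to 7761 CPM and 5450 to 8350 CPM. Their main member miR-126-3p had 7285, 6290, 5348 and 3957 CPM against 5100, 7904 and 5328 CPM, and miR-139 lay at 0.30. The 3 erythroid miRNAs summed to 1359 to 1684 CPM and 1609 to 2234 CPM. Their main member, the Dicer-independent miR-451, had 1260, 1610, 1436 and 1287 CPM against 2084, 1491 and 1654 CPM, with sow 5 highest and a log2 difference of 0.32. The 8 leukocyte miRNAs summed to 911 to 1276 CPM in control and 812 to 987 CPM in dosed sows, with 5 of 8 lower and a median log2 of -0.34. The most abundant of them, miR-146b, had 253, 398, 323 and 771 CPM against 386, 229 and 378 CPM, sow 4 being highest, and miR-142-5p lay at -0.53.

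Lists of miRNAs known mainly from muscle, liver, brain and the embryo were examined too. The 3 miRNAs of skeletal and cardiac muscle that were found summed to 348 to 1067 CPM in control and 464 to 860 CPM in dosed sows. miR-1 had 806, 465, 361 and 193 CPM in control against 521, 567 and 306 CPM, a log2 difference of 0.03, and miR-133a lay at 0.35. miR-122 of liver stayed at 18.2 to 20.3 CPM in control and 18.4 to 22.9 CPM in dosed sows. miR-9, a miRNA of neural and some epithelial cells, had 2113, 1387, 2529 and 1568 CPM against 1653, 2571 and 935 CPM. No miRNA typical of the pluripotent embryo was named, as none of that list was found among the read groups of at least 10 CPM.

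Of the 9 oestrogen-linked miRNAs, which target the oestrogen receptor or respond to it in other tissues, 6 were higher and 3 lower in the fit (median log2 0.24). They summed to 18611 to 33603 CPM in control and 26661 to 36127 CPM in dosed sows. miR-26a led the list with 21987, 17396, 18254 and 11621 CPM in control and 22840, 23150 and 17961 CPM in dosed sows, and miR-221 had its smallest p. The 11 implantation-linked miRNAs, led by miR-30a, had 7 higher and 4 lower with a median log2 of 0.05. The 11 members of the proliferation cluster miR-17-92 and its paralogues had 6 higher and 5 lower (median log2 0.05). Their leading member miR-92a had 3943, 3318, 3733 and 2643 CPM against 4550, 3943 and 3844 CPM. The 3 miRNAs of the miR-23, miR-27 and miR-24 clusters had log2 differences of 0.04, 0.07 and 0.26. The 8 members found of the DLK1-DIO3 cluster, led by miR-127 at 0.04, had 5 higher and 3 lower (median log2 0.07).

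The ends of the miRNAs did not differ past the threshold between the groups. Ends were set against the leading read, and since no hairpin sequence was used, a base added after processing and a base of the precursor cannot be told apart beyond the leading 3′ end. Of the reads assigned to miRNAs, 93.5 ± 0.262% in control and 93.6 ± 0.0388% in dosed sows began at the leading 5′ end (SD, n = 4 and 3; exact permutation p = 0.371). The 3′ end varied more, with 49.9 ± 0.782% and 49.5 ± 1.10% at the leading 3′ end, 19.04 ± 0.741% and 18.01 ± 2.05% shorter, and 17.3 ± 0.293% and 17.7 ± 0.496% longer. Added A was seen in 6.29 ± 0.452% and 5.91 ± 0.228% of reads and added U in 8.06 ± 0.0907% and 8.31 ± 0.753%. All 12 composition measures had an adjusted p of at least 0.914 by the exact permutation test. Of 2464 end variants tested, 0 passed the test of level (0% called, 64 at an unadjusted p under 0.05, 2.6%) and 0 that of share within their miRNA (0% called, 3 at an unadjusted p under 0.05, 0.122%) by edgeR. The test of shares gave small p far less often than no difference at all would give. Its count of 0 therefore says little about shares.

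Within the abundant miRNAs the leading form held similar shares in both groups. It made up 49.1 ± 2.25% of miR-21 in control and 47.3 ± 3.09% in dosed sows (SD, n = 4 and 3), and the form 1 base shorter 22.6 ± 1.92% and 22.9 ± 1.70%. For miR-143 the leading form held 35.8 ± 1.27% and 34.7 ± 0.484%, for miR-10b 60.4 ± 0.733% and 59.9 ± 1.83%, for let-7i 53.3 ± 1.42% and 51.9 ± 0.406%, and for let-7a/c 62.5 ± 1.38% and 61.4 ± 0.575%. Forms of let-7i with an added U held 11.8 ± 0.445% and 12.8 ± 0.825%, and forms with an added A 9.07 ± 0.636% and 8.47 ± 0.197%.

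Sow 5 stood apart in its 3′ ends. Reads 1 base short of the leading end and then ending in letters other than a run of A or U held 20.9% of its miR-143 reads, against 16.004 to 17.99% in the other 6 sows. They held 15.4% of its miR-10b reads against 10.5 to 12.9%, 11.05% of let-7i against 8.07 to 9.08%, and 11.6% of let-7a/c against 8.50 to 10.1%. In the same sow plainly shortened reads were 15.9% of all assigned reads, the lowest of the 7, and added U was 9.18%, the highest. The other dosed sows did not show this.

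The end variants with the smallest p in the test of shares were all minor forms. A form of miR-9 that starts 1 base later and ends 2 bases earlier than the leading read took 0.0858 ± 0.0349% of its reads in control and 0.221 ± 0.0466% in dosed sows (SD, n = 4 and 3; unadjusted p = 0.0276 and adjusted p = 0.9999 by edgeR). The form of miR-96, a sensory and epithelial miRNA, that is 2 bases shorter with an added U took 0.873 ± 0.287% and 1.91 ± 0.417%. A form of miR-181d with an added A took 1.97 ± 0.241% and 1.10 ± 0.429%. The other 7 forms of this kind, of miR-10b, miR-126-3p, miR-200a, miR-30d, miR-423-5p and miR-92a, each held under 1% of their miRNA.

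A shifted start changes the seed, on which target choice mainly depends. For 8 miRNAs over 20% of reads began 1 base before or after the leading read. That read is the most frequent one of the group with the known seed, and not always of all starts. For miR-140-3p it had 20033 reads over the 7 sows against 41434 for the main later read. For miR-203 it had 13450 against 21204. CPM of a named miRNA count only reads that share the first 18 bases of its leading read, so shifted starts are left out. 3 of the 8 miRNAs are shown with both starts, capitals marking the seed of each form.
miR-203, leading start: gTGAAATGtttaggaccactag
miR-203, 1 base later: tGAAATGTttaggaccactagt
miR-101, leading start: tACAGTACtgtgataactgaag
miR-101, 1 base earlier: gTACAGTActgtgataactga
miR-140-3p, leading start: tACCACAGggtagaaccacgga
miR-140-3p, 1 base later: aCCACAGGgtagaaccacggac
The later start of miR-203 took 41.4, 54.4, 49.5 and 55.8% of its reads in control and 40.4, 39.9 and 45.5% in dosed sows (two-sided exact permutation p = 0.114, adjusted p = 0.543 over 19 ratios). It was most frequent in sows 2 and 4, the control sows with the most miR-203. The earlier start of miR-101 took 26.6, 24.8, 24.3 and 30.4% in control against 26.1, 29.3 and 26.5%, and the later start of miR-140-3p, a miRNA of cartilage and mesenchyme, 57.2, 58.2, 54.8 and 54.7% against 57.8, 57.7 and 56.8%. The start shares of miR-411, miR-214, miR-183, miR-199-3p and miR-10a overlapped between the groups too.

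Ratios of 3′ arm to 5′ arm miRNAs also overlapped. The ratio of miR-126-3p to miR-126-5p was 20.9, 24.5, 21.2 and 28.7 in control and 23.0, 27.2 and 27.1 in dosed sows. That of miR-199-3p to miR-199a-5p ran from 0.686 to 0.877 and from 0.804 to 1.01. It leaves out miR-199b-5p, at a mean of 6854 CPM in control and 6938 CPM in dosed sows, so it is not the balance of 1 hairpin. Of 19 ratios and shares tested within miRNAs and families, 0 had an exact permutation p under 0.05.

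Among the read groups of at least 100 CPM with no name under the rule, 13 had groups that did not overlap. With the 4 named miRNAs they make up the 1.27% above and 1.43% below among all 629 groups of that level, so they are themselves the background. These were chosen after their values were seen. 5 of them were forms of the 3′ end of Y5 RNA that share their last 21 bases, all lower in the 3 dosed sows, so they are not separate observations. The leading 18 to 26 nt form and the leading longer forms of Y5 RNA are shown, since the short and long fragments of its 3′ end are compared.
Y5 RNA, 3′ end, short: accacgtttgactgactgtgttt
Y5 RNA, 3′ end, long: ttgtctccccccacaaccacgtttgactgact
Y5 RNA, 5′ end, long: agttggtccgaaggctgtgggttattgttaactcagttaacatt
The short form had 2698, 2353, 2017 and 1899 CPM in control and 1198, 1454 and 1591 CPM in dosed sows. Extraction 7a had 1221 CPM and 7b had 1889 CPM, just below sow 4. The log2 difference was -0.66 (95% interval -1.14 to -0.19, unadjusted p = 0.00775, adjusted p = 0.9997 by edgeR), at -1.08 in class A and -0.69 in class B. It was -0.43 at 10 and -0.66 at 1000 µg/kg/day against the same control sows.

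Summed over all forms and scaled by all deposited reads (RPM, reads per 1000000) in place of the TMM factors, the groups overlapped. Both changes were made at once. With the scaling alone changed, the leading short form of the Y5 RNA 3′ end had a log2 difference of -0.67 (unadjusted p = 0.0449 by edgeR). Short reads of the Y5 RNA 3′ end stood at 2361, 1909, 2296 and 2697 RPM in control and 1224, 1637 and 1929 in dosed sows, where sow 7 lay above sow 2 (two-sided exact permutation p = 0.0857, adjusted p = 0.857 over 10 Y RNA sums). Longer reads of the same end stood at 4299, 3095, 2671 and 3847 RPM in control and 3794, 3221 and 2584 in dosed sows. Short reads thus made up 40.3 ± 4.62% of the Y5 3′ reads in control and 33.6 ± 9.18% in dosed sows, with 24.4% in sow 5 the lowest (SD, n = 4 and 3; exact permutation p = 0.257). The leading longer read shown above stops before the last bases of the leading short form. The short and longer reads set against each other can therefore differ in their 3′ ends as well as in length. Fragments of the 5′ ends of Y1, Y3, Y4 and Y5 RNA overlapped between the groups in both length ranges. The most abundant, long 5′ fragments of Y4 RNA, had 5782, 4824, 4611 and 3743 RPM in control and 2977, 5530 and 3674 in dosed sows.

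**Figure D5:**
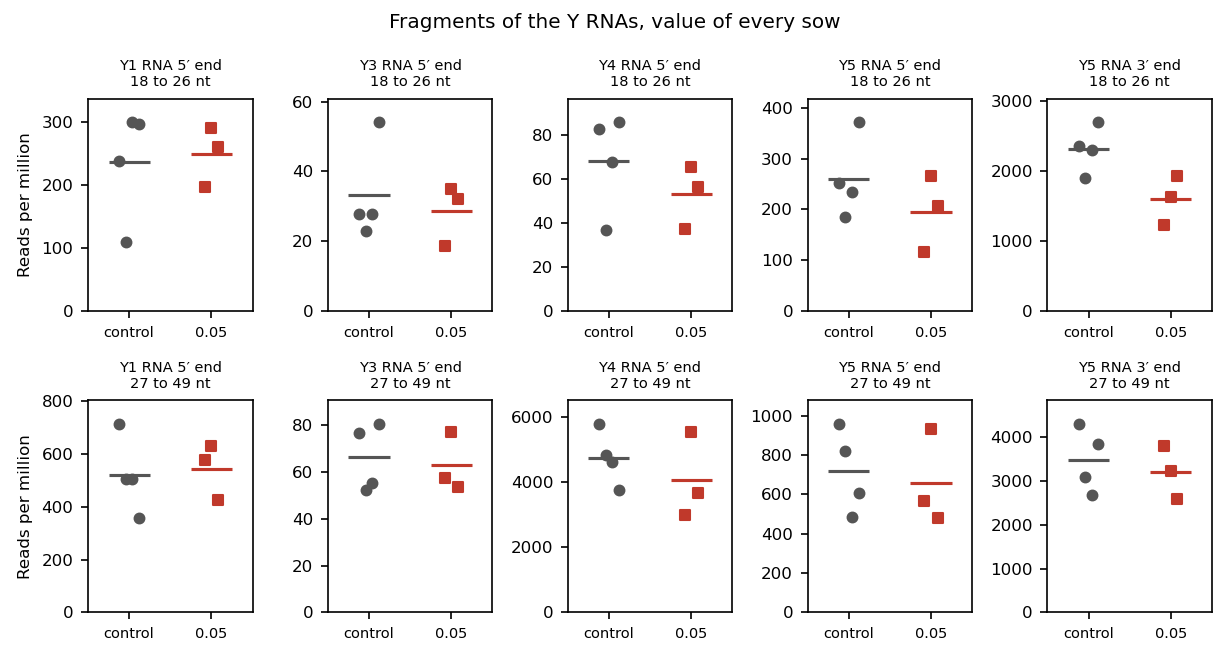
Reads per 1000000 deposited reads (RPM) from the ends of Y RNAs in every control and dosed sow, with group means as lines, short reads (18 to 26 nt) above and longer reads (27 to 49 nt) below. For short reads of the Y5 3′ end sows 5 and 6 lie below all control sows and sow 7 at 1929 lies beside sow 2 at 1909, and longer reads of that end overlap, with sow 7 lowest.

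2 further separated groups have the sequences of known miRNAs outside the seed families searched, and are shown with the seed in capitals.
miR-328: cTGGCCCTctctgcccttccgt
miR-1343: cTCCTGGGgcccgcactctcgc
miR-328 had 193, 139, 203 and 163 CPM in control and 249, 272 and 204 CPM in dosed sows (log2 difference 0.47, unadjusted p = 0.0449 by edgeR), sow 7 lying next to sow 3. miR-1343 had 155, 111, 145 and 130 CPM against 176, 197 and 174 CPM (log2 difference 0.43). An inner fragment of tRNA-His lay at -0.49 and an inner fragment of 28S rRNA at -0.21. The other 4 groups were not identified, and 1 of them, of 22 nt, had 166, 154, 174 and 159 CPM in control and 243, 291 and 262 CPM in dosed sows (log2 difference 0.70, unadjusted p = 0.0033, adjusted p = 0.9997 by edgeR). Both extractions of sow 7, at 237 and 285 CPM, lay above every control sow for it.

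Longer reads, of 27 to 49 nt, were led by tRNA and rRNA fragments, and 0 of 11416 groups with identical opening bases (25 nt) passed the test by edgeR (0% called, 124 at an unadjusted p under 0.05, 1.09%). The median log2 difference over all of them was -0.03. The leading fragment, the 5′ part of tRNA-Gly that is cut at the anticodon loop by ribonucleases such as angiogenin, is shown.
tRNA-Gly, 5′ part: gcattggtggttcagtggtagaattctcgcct
The tRNA-Gly fragment had 98632, 69304, 110807 and 91590 CPM of the longer reads in control and 138966, 73599 and 101588 CPM in dosed sows. Sow 5 lay above the control range and the other dosed sows within it, and extractions 7a and 7b of the same sow held 64054 and 128268 CPM. Its log2 difference was 0.18 (95% interval -0.76 to 1.12).

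A 3′ part of U1 small nuclear RNA, a component of the spliceosome, had 63987, 45500, 25291 and 37823 CPM in control and 52261, 73747 and 45103 CPM in dosed sows (log2 difference 0.40, 95% interval -0.62 to 1.43). The 5′ ends of 28S and 5.8S rRNA lay at 0.13 and 0.20. The 5 leading fragments of the 5S rRNA 3′ end had log2 differences of -0.16, -0.38, -0.20, -0.32 and 0.24. The last of these, of 44 nt, had 24363, 30266, 5017 and 5575 CPM in control and 26179, 18043 and 13524 CPM in dosed sows. It was high in the class A sows 1, 2 and 5 whatever the dose, and extraction 7a had 6091 CPM against 18586 CPM in 7b.

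The longer groups with the smallest p were minor fragments. A tRNA 3′ end with the added CCA and 3 fragments of 18S rRNA, all under 20 CPM, lay at -1.55, -1.09, -1.44 and -1.10. In this set 1.05% of all 11416 groups had all dosed sows above and 1.9% all below the control sows, and of the 909 groups of at least 100 CPM 0.55% and 0.99%.

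A fragment of 28S rRNA was far higher in 1 control sow than in the other 6 sows. The fragment holds the letters of the miR-122 seed, shown in capitals for miR-122 itself.
miR-122: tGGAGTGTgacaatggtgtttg
28S rRNA, inner fragment: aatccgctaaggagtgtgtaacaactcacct
The fragment had 10.4, 252, 13.3 and 16.9 CPM in control and 8.63, 7.64 and 10.1 CPM in dosed sows (log2 difference -3.04, unadjusted p = 0.00476 by edgeR), sow 2 standing far above the rest. The dosed sows also lay below the other 3 control sows, and the log2 difference within class B, which leaves out sow 2, was -0.46. A 19 nt read group with the miR-122 seed at its bases 2 to 8 lies inside this fragment and had 5.60, 177, 4.45 and 10.1 CPM in control and 5.801, 3.06 and 4.83 CPM in dosed sows (log2 difference -3.41). miR-122 with its full sequence had a log2 difference of 0.14. A count by seed alone would thus have mixed an rRNA fragment of sow 2 into the liver miRNA.

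The smallest p of all longer groups belonged to a 33 nt fragment that was not identified. It had 0, 0, 0 and 1 reads in control and 57, 18 and 31 reads in dosed sows, of which 1 lay in extraction 7a and 30 in 7b (unadjusted p = 0.000329, adjusted p = 0.9999 by edgeR). Its log2 difference was 6.41, and at 10 and 1000 µg/kg/day, against the same control sows, it was 5.85 and 5.35. The fragment was thus not particular to the lowest dose. DESeq2 called this fragment and 2 overlapping fragments lower in dosed sows, which were not identified and were read only in control sows 1 and 2 among these 7.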

How the data were processed

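Endometrial small RNA was extracted with TRIzol and made into libraries with the NEBNext Small RNA kit, per the labels' protocols. The deposited files hold the count of each distinct read of 17 to 49 nt, whole numbers with no normalization by the authors. FastQC and the builds Sscrofa10.2, UMD3.1, GRCm38 and GRCh37.p5 are named in the submitters' processing notes, and the aligner is not given in the sources used here. No miRNA reference table was used. Reads of 18 to 26 nt were grouped by their first 18 nt, and reads of 27 to 49 nt by their first 25 nt. The planned assignment to reference miRNAs was replaced by these groups, and 137 miRNAs were named from the leading read and 102 known seeds after the reads were seen. The members, lists and names were chosen with earlier results of these data known.

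Libraries 7a and 7b were summed. Counts of all 15 sows were fitted with edgeR 4.0.16 (TMM, filterByExpr, robust quasi-likelihood F-test, Benjamini-Hochberg, threshold 0.05) in R 4.3.3, with DESeq2 1.42.0 as an alternative, and CPM use the TMM factors. The low count filter kept 11108 short groups (93.8% of the reads of that length) and 11416 longer groups (88.8%). End variants allowed a start shift of up to 2 bases, at least 16 matching bases and a tail of up to 3 bases. Single values per sow were compared with a two-sided exact permutation test over 35 assignments, which cannot give a p below 0.0286. The scripts were tested on simulated data. P-values measure the spread between sows. A count of 0 allows up to 3 reads, which is 0.162 to 0.484 per 1000000 reads for these sows and covers counting error only. Named are the 10 most abundant miRNAs, the 10 with the smallest p, those of at least 100 CPM with separated groups, and the leading and smallest-p member of each list, with like rules for end variants and longer fragments. Alternatives were another scaling, DESeq2, a looser filter, the 7 sows alone, length class as a covariate, each sow left out, and either extraction alone. Some of the fragments this rule names are not reported here.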

Additional observations from a re-analysis of the deposited data

Results flagged for a closer look

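Of 70 sets of 4 control values examined for a sow far from the others, 4 had a gap between the outermost sow and its nearest neighbour that took up an unusually large part of the group's range, where chance gives about 1 set in 20. For miR-30a the gap was 0.844 of the range, from sow 1 at 19199 CPM to the other control sows at 15482 to 16063 CPM. The dosed sows at 11614 to 14383 CPM lay below all of them, and leaving out sow 1 moved the log2 difference to -0.31. The share of assigned reads at the leading 3′ end had a gap of 0.868, with sow 2 at 51.1% and the other control sows at 49.4 to 49.6%. An inner 28S rRNA fragment had a gap of 0.973, with sow 2 at 252 CPM and the other control sows at 10.4 to 16.9 CPM. A 33 nt fragment that was not identified had a gap of 1 because sow 4 held its only control read.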

How the results depend on the processing

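Counts of named miRNAs, end variants and composition measures past the threshold were 0 in the reported analysis and under every alternative run for them. Leaving out each sow in turn gave 0 to 0 for named miRNAs, end variants and longer fragments. For composition measures it also gave 0, but there too few assignments remain for the exact permutation test to reach 0.05. With all 7 sows, a composition measure alone at the smallest possible p of 0.0286 by that test would not pass after adjustment over 12 measures. For longer fragments DESeq2 called 3, with 113 at an unadjusted p under 0.05, against 0 and 124 by edgeR; the cause was not tested. Of those 3 fragments the higher one had an adjusted p of 0.159 in the edgeR fit of these 7 sows alone. The number of short read groups at an unadjusted p under 0.05 ran from 137 (scaling by all deposited reads) to 615 (groups of at least 30 reads, of 26704 tested), with 436 without sow 7. The log2 differences of 12 followed RNAs kept their direction in all 180 recomputed values. miR-205 ran from 0.53 without sow 4 to 1.04 with length class as a covariate (sow 7, of mixed extractions, entered as class B), miR-203 from -1.49 (leading read alone) to -0.77 without sow 2, miR-101 from -0.75 without sow 4 to -0.33 without sow 2, and miR-34c from -0.94 without sow 2 to -0.39 without sow 3. The median over end variants was 0.05, but -0.07 without sow 4 and -0.05 without sow 6. The filter of at least 30 reads and the count of the leading read alone were chosen after seeing the data; they stand in for a fit with no filter and for reads identical to a reference miRNA, which were not run, as was a match to the hairpin. No paired analysis was possible because the groups share no replicate numbers. Depth limits rare RNAs, since a count of 0 in a sow allows up to 0.484 per 1000000 reads.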
